A study of Mus musculus with 6 samples.

Results

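Among the transcripts that differed between control and H19-depleted mouse myotubes are loci that carry only a placeholder name, either a RIKEN clone name ending in Rik or a gene model number beginning with Gm. They were taken from the authors' table as the rows whose gene symbols are all of 1 of these forms. The rule found 95 of the 2549 rows that carry a symbol, 75 with Rik names and 20 with Gm names, and the table lists 3019 rows in all. The 95 rows hold 94 distinct symbols, because Gm684 and Gm5105 each occupy 2 rows and 1 row joins Gm14306 with Gm14436.

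RIKEN names were given to full-length mouse cDNA clones whose gene was not yet known, and the leading characters of the name record the plate, and so the tissue library, of the clone. Gm names were given to mouse gene models that were predicted or annotated before a function was known. A placeholder name therefore marks the state of knowledge and not a kind of gene: some such loci have since been found to encode proteins, among them very small ones in muscle, while others make long noncoding RNAs.

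The cells were C3H myoblasts, a commercial mouse line that fuses into multinucleated myotubes on differentiation. After 40 h in differentiation medium they received either a control siRNA (siCon) or an siRNA against the long noncoding RNA H19 (siH19), and RNA was taken after a further 48 h. Each group has 3 libraries, and the labels name no other treatment. Total RNA was depleted of rRNA, made into strand-specific libraries and sequenced from both ends. The study used the comparison to ask which genes respond to loss of H19. All cells came from 1 line. The study's methods describe the transfections as done in triplicate in multiwell plates, and the labels do not name separate cultures.

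Every level below is the authors' group value in log2 FPKM (a fragment count corrected for transcript length and for the total of mapped fragments), 1 value for the 3 libraries of a group. A difference is the siH19 value minus the siCon value. No value per library was analysed here, so there is no spread between replicates, no depth and no test, and each difference is a description of 2 group values. The table lists only rows that the authors called different, so a gene that is not listed has no value here. In bulk RNA, a change in the share of a cell type and a change in RNA per cell cannot be told apart.

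H19 itself was at 11.20 in siCon and 7.50 in siH19, a difference of -3.70, so that 7.69% of the control level was left. Of 10 myotube markers, 7 were listed and all 7 were higher in siH19 (as were 60.1% of all rows with a symbol), with differences from 0.53 to 1.43. Among them were Myog, a transcription factor of muscle differentiation, at 7.79 and 9.22, and Tmem8c, which encodes the fusion protein myomaker, at 7.85 and 8.59. The myoblast marker Myf5 was at 3.41 and 3.03 and the fibroblast marker Col1a1 at 4.81 and 5.22. Myh3, Myh8, Des, Pax7, Pdgfra and Thy1 were not listed. The part of the higher myotube markers in the differences below was not tested.

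In the mouse annotation (GENCODE M21 and RefSeq, GRCm38), 94 of the 95 rows matched a gene. Of these, 68 were protein coding, 24 long noncoding and 2 transcribed pseudogenes, and the joined row Gm14306 and Gm14436 was not matched. Among the other 2454 symbol-bearing rows, 2425 were protein coding (98.8%) and 8 were long noncoding. RefSeq gives another symbol for 48 of the 95 rows, and 43 of these are protein coding, so that about as many loci now have a name of their own as still carry the placeholder. Those current names are given in parentheses below.

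The loci were small and weakly expressed beside the rest of the list. The median level in siCon was 1.57 for the RIKEN and Gm rows, with quartiles of -0.475 and 3.655, against 3.32 for the other rows, with quartiles of 1.83 and 4.60. Both group values lay below 0, that is below 1 FPKM, in 25 of 95 rows (26.3%) and in 147 of 2454 others (5.99%). The authors' locus of a row had a median width of 15045 bp against 32430 bp, and the longest annotated transcript had a median of 4 exons against 9. Such a locus can be wider than the gene. That of 4632428N05Rik (Vsir) spans 393741 bp, while its annotated gene is at chr10:60346851-60372684. The long noncoding loci were the lowest, with a siCon median of -0.515 against 2.74 for the protein-coding ones.

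**Figure D1:**
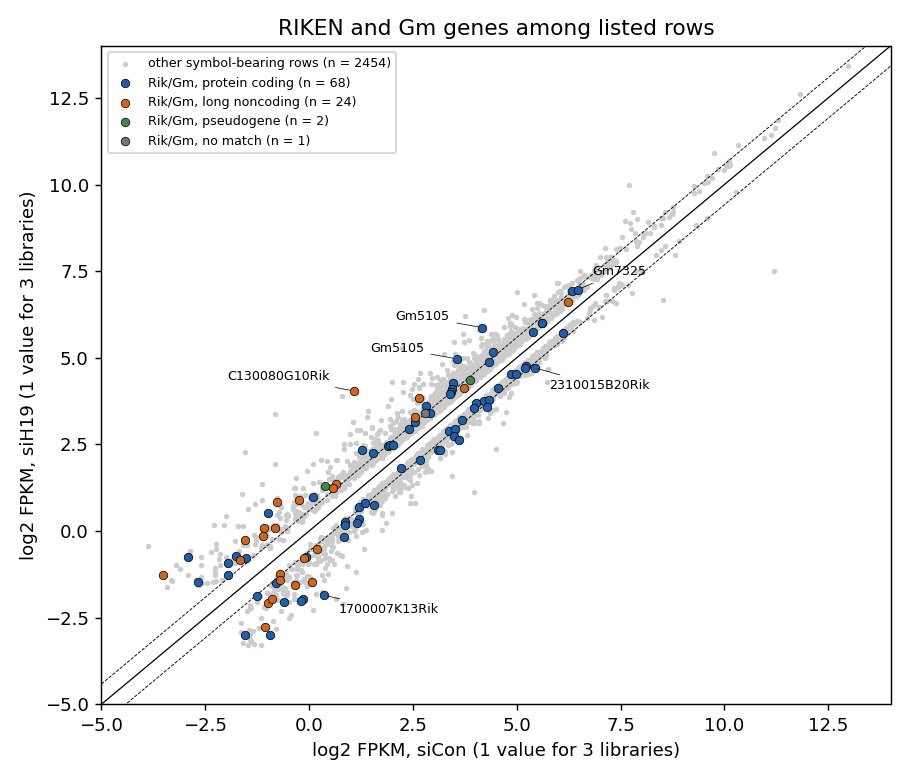
Log2 FPKM in siH19 (vertical) against siCon (horizontal), 1 authors' group value each for 3 libraries, with the 95 RIKEN and Gm rows coloured by annotated class over the 2454 other symbol-bearing rows in grey. The solid line marks equal values, along which a band is empty because only called rows are listed, and the dashed lines mark 1.5-fold. The noncoding loci lie mostly in the lower left.

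The RIKEN and Gm rows were divided nearly evenly between the directions. In siH19, 48 were higher and 47 lower (50.5% higher), where 60.1% of all symbol-bearing rows were higher and 39.9% lower. Of the other rows alone, 1485 were higher and 969 lower (60.5% higher). At least a 1.5-fold difference (0.585 on the log2 scale) separated the groups in 63 of the 95 rows (66.3%), where 47.0% of all symbol-bearing rows passed that fold. Of the 63, 33 were higher and 30 lower in siH19, against backgrounds of 30.8% and 16.3% of all symbol-bearing rows. Among the other rows, 1136 passed (46.3%), 751 higher and 385 lower. At 2-fold, 28 RIKEN and Gm rows passed, where 15.1% of all symbol-bearing rows did, with 15 higher and 13 lower against backgrounds of 9.73% and 5.34%. At the lowest fold tried all 95 passed, where 98.9% of all symbol-bearing rows did (59.6% higher and 39.3% lower), so that this setting separates nothing. The median of all symbol-bearing rows was itself 0.41, and with this subtracted from every difference 15 RIKEN and Gm rows were higher and 47 lower past the fold. The share higher among rows past the fold was 52.4% for RIKEN and Gm rows and 66.1% for the others as listed, and 24.2% and 19.4% after the subtraction, so the order of these shares depends on the centring.

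Level went together with the size of the listed differences. Among rows with a mean level below 0, 30 of 31 RIKEN and Gm rows (96.8%) and 209 of 222 others (94.1%) passed the fold. From 0 to 2 these numbers were 14 of 16 (87.5%) and 273 of 424 (64.4%), from 2 to 4 they were 14 of 29 (48.3%) and 324 of 847 (38.3%), and from 4 upwards 5 of 19 (26.3%) and 330 of 961 (34.3%). The smallest listed difference in either direction was 0.56 for RIKEN and Gm rows below 0 and 0.35 for those at 4 or more, and 0.39 and 0.31 for the other rows at these levels. The share that was higher in siH19 also moved with level, from 41.9% of RIKEN and Gm rows below 0 to 57.9% at 4 or more, and from 39.6% to 69.3% of the others.

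**Figure D2:**
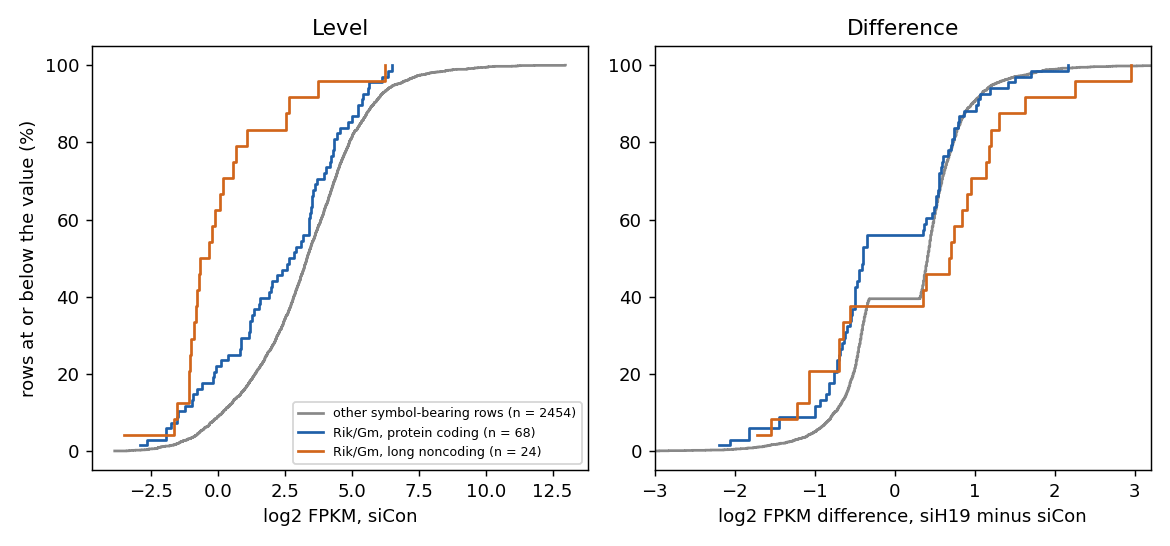
Cumulative percentage of rows by siCon level (left) and by difference, siH19 minus siCon (right), both in log2 FPKM, for the 68 protein-coding and 24 long noncoding RIKEN and Gm rows and the 2454 other symbol-bearing rows. The noncoding curve lies to the left in level (median -0.515), and the flat stretch of each curve around 0, where nothing is listed, stands highest for the protein-coding rows, of which 38 of 68 were lower in siH19.

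The largest difference belonged to C130080G10Rik, a long noncoding gene annotated as antisense on the plus strand, whose row covered chr2:114054267-114088268 in mm10. Its level was 1.08 in siCon and 4.04 in siH19, a difference of 2.96. Its row began 24 bp beyond the end of that of Actc1, which encodes cardiac alpha-actin, an actin of embryonic and differentiating muscle, on the minus strand. Actc1 was at 7.70 and 9.98, a difference of 2.28, so both genes of this divergent pair were higher in siH19. The annotated start of C130080G10Rik lay 787 bp from that of Actc1. Of its 76-base windows, the length of 1 read, 45.1% also occur in A530058N18Rik, with which its reads could be shared.

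The promoter windows of 4 members are shown because the data bear on them: 2 of muscle-linked loci, with the E-box letters bound by MyoD-family factors in capitals, and 2 of noncoding loci that start beside a coding gene, with each CG pair in capitals. They run from 250 bases before to 50 bases after the start, as RefSeq sequences of GRCm38.p6, for C130080G10Rik (chr2:114054146-114054445, plus strand), 2310015B20Rik (chr10:70204414-70204713, plus strand), 2810029C07Rik (chr12:111574353-111574652, minus strand) and Gm16675 (chr8:46739466-46739765, minus strand).
C130080G10Rik: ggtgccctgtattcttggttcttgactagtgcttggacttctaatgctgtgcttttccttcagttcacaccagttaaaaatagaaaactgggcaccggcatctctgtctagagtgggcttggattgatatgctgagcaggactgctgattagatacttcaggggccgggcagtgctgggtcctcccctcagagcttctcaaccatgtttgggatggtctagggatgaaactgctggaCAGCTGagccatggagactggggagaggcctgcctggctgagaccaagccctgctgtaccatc
2310015B20Rik: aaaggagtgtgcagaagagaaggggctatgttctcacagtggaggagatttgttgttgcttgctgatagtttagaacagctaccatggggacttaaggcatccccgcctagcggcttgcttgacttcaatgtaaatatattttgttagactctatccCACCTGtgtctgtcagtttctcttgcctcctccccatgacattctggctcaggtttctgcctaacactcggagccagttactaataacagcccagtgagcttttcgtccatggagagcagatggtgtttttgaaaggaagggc
2810029C07Rik: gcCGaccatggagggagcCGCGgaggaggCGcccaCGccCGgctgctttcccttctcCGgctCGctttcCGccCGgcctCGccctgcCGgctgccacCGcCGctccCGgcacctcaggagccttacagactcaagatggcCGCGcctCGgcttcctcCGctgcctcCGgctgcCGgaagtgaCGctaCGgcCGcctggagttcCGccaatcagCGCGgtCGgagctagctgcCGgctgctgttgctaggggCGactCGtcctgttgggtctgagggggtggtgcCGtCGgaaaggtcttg
Gm16675: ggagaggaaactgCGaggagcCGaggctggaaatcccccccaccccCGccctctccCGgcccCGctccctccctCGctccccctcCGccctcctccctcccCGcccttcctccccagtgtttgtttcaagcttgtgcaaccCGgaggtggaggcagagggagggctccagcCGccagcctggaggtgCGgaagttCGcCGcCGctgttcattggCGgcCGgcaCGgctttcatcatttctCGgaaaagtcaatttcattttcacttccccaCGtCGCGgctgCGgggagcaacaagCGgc

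The first window holds CAGCTG beginning 13 bases before the RefSeq start and has 2 CG pairs. That start lies downstream of the GENCODE start used above for the distance to Actc1, so this CAGCTG falls between the starts of both annotations and inside the row of C130080G10Rik. For the other 3 windows the RefSeq and GENCODE starts are the same. The second holds CACCTG, the reverse complement of CAGGTG, beginning 93 bases before the start, and has 4 CG pairs. The windows of 2810029C07Rik and Gm16675 hold neither E-box and have 33 and 23 CG pairs. Promoter windows were found for 72 members. CAGCTG, which reads the same on both strands, was in 15 of them (20.8%) against 16.1% of all 27025 windows, and CAGGTG on either strand in 18 (25%) against 20%. TATAAA on either strand was in 6 (8.33%) against 14.2%. Among 1979 windows of the other listed genes, CAGCTG was in 17.1%, CAGGTG in 19.6% and TATAAA in 8.79%. The median number of CG pairs was 16.5 for the protein-coding and 7.5 for the noncoding members, 20 for the other listed genes and 7 for all genes. These matches describe letters and not binding.

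The members with a known part in muscle differed in sign. Gm7325 (Mymx), at chr17:45600967-45602170, encodes myomixer, also called minion or myomerger, a micropeptide that acts with myomaker in myoblast fusion. It was the member with the highest mean level, at 6.48 in siCon and 6.97 in siH19, a difference of 0.49 that did not pass 1.5-fold. 2310015B20Rik (Mrln), at chr10:70204667-70219711, encodes myoregulin, a micropeptide of the sarcoplasmic reticulum that inhibits the calcium pump SERCA. It was at 5.43 in siCon and 4.71 in siH19, a difference of -0.72.

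The difference of myoregulin was opposite in sign to those of the listed calcium-handling genes. Of 17 genes of the sarcoplasmic reticulum and the voltage sensor coupled to it, 10 were listed, all 10 were higher in siH19 and 7 passed 1.5-fold, with a median of 0.725 and a range from 0.50 for Cacna1s, the voltage sensor in the T-tubule membrane, to 1.72 for Casq1, a calcium-storing calsequestrin. Over all symbol-bearing rows, 60.1% were higher, and 47.0% passed 1.5-fold (30.8% higher). The pump genes Atp2a1 and Atp2a2 were at 5.93 and 6.62 and at 7.13 and 8.18. Casq2, the other calsequestrin, was at 7.90 and 9.0. Atp2a3, Ryr1, Asph, Jph1, Stac3 and the related pump regulators Sln and Pln were not listed, so myoregulin could not be set beside either of these micropeptides.

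**Figure D3:**
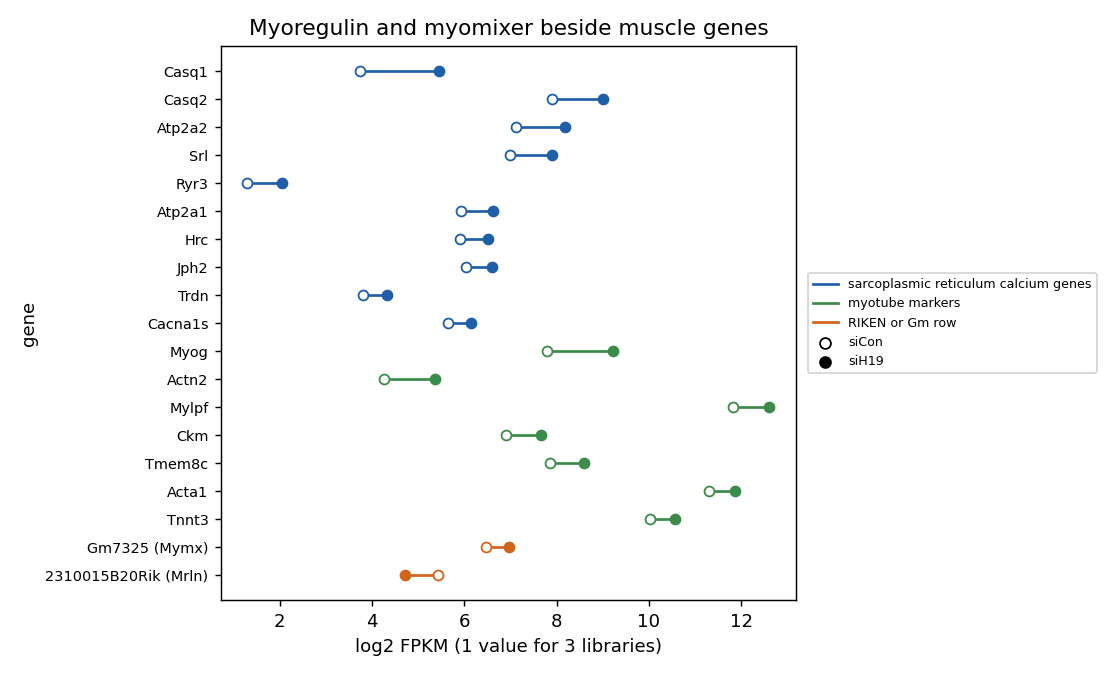
Log2 FPKM (horizontal) in siCon (open) and siH19 (filled), 1 authors' group value each for 3 libraries, for the listed sarcoplasmic reticulum calcium genes (with the T-tubule gene Cacna1s), the listed myotube markers and the 2 micropeptide members. The siH19 point lies to the right of the siCon point in each gene except that of 2310015B20Rik (Mrln), which was at 5.43 and 4.71.

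Beside Gm7325, the highest levels were those of 9530068E07Rik at 6.34 and 6.94, 2900097C17Rik (Norad) at 6.24 and 6.60, 1110007C09Rik (Card19) at 6.12 and 5.72 and 2810407C02Rik (Selenot) at 5.62 and 5.99. Norad is a long noncoding RNA that binds Pumilio proteins and Selenot a selenoprotein of the endoplasmic reticulum. Only 9530068E07Rik passed 1.5-fold among these 5 members, and 34.3% of the Norad windows also occur in Gm7292. Norad was the single noncoding member at such a level. Of the 24 noncoding members, 11 (45.8%) were below 0 in both groups.

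The noncoding members were 15 higher and 9 lower in siH19, and 21 of the 24 passed 1.5-fold, 13 higher and 8 lower. The share higher, 62.5%, was near the 60.1% of all symbol-bearing rows. The share past the fold, 87.5%, was above the 47.0% of all symbol-bearing rows (30.8% higher and 16.3% lower). Among the other rows, 94.1% passed at a mean level below 0, 64.4% from 0 to 2, 38.3% from 2 to 4 and 34.3% from 4 upwards. Among the higher ones, the largest differences after C130080G10Rik were those of 5330411J11Rik, at -3.52 and -1.27, and 5930438M14Rik, at -0.78 and 0.85. 4921509O07Rik was at -1.55 and -0.25, Gm14635 at 2.64 and 3.84, 1700065J18Rik at -1.09 and 0.09, and 2310020H05Rik at -0.24 and 0.90. Of these, Gm14635 alone was above 1 FPKM in both groups. 1700001L05Rik, 4930412B13Rik and 2610507I01Rik followed with differences of 0.96, 0.91 and 0.84. The remaining ones that were higher were 2310043L19Rik by 0.74, 2410137F16Rik (Srrm4os) by 0.70, 4732491K20Rik by 0.68, 3300005D01Rik by 0.39 and Norad by 0.36.

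Of the 9 noncoding members that were lower, 2700070H01Rik differed most, at -1.05 and -2.77. 1700013G23Rik (Med9os) was at 0.08 and -1.46, 2900041M22Rik at -0.34 and -1.56, 2810029C07Rik at -0.90 and -1.97, and Gm16675 at -1.0 and -2.07. 2810468N07Rik (Cerox1), a long noncoding RNA known to raise transcripts of mitochondrial complex I, was at 0.19 and -0.51. C630043F03Rik, Gm3716 and E430016F16Rik differed by -0.69, -0.64 and -0.56. None of the 9 was above 1 FPKM in siH19, so these are differences among weak transcripts.

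The noncoding members were also counted by where they start. Among the 22 with an annotated strand, 8 started within 1000 bp of a protein-coding start on the opposite strand, and 3 of these were higher and 5 lower in siH19. Of the other 14, 12 were higher and 2 lower. Over all symbol-bearing rows, 60.1% were higher and 39.9% lower. The shortest distances were 57 bp for 4732491K20Rik and Map3k4, 64 bp for 1700013G23Rik and Med9, 101 bp for 2610507I01Rik and Mrpl55 and 121 bp for 2810029C07Rik and Mark3. The coding partner was listed in 3 of the 8 pairs, so most of these partners have no value here. This split was made after the values were known and was not tested.

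In those 3 pairs both relations occurred. Actc1 was higher with C130080G10Rik, as given above. Mark3, which encodes a kinase, was at 5.01 and 5.55 while 2810029C07Rik was lower. Irf2, which encodes an interferon regulatory factor, was at 1.93 and 2.54 while Gm16675 was lower. The latter pairs have the CG-rich windows printed above, and the first has the window with 2 CG pairs. With 3 pairs, a relation of CG content to direction was not tested.

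**Figure D4:**
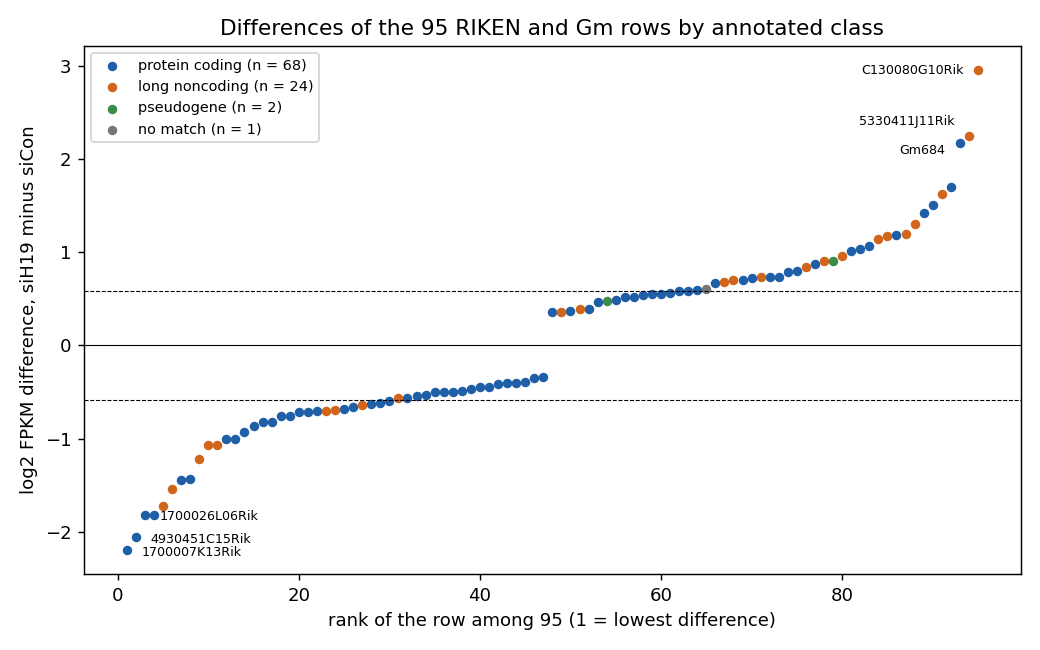
Log2 FPKM difference, siH19 minus siCon, of the 95 RIKEN and Gm rows in rank order, coloured by annotated class, with dashed lines at 1.5-fold. The gap between -0.34 and 0.36 holds no row, and noncoding loci occupy the first and the second highest places.

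Protein-coding members were 30 higher and 38 lower in siH19, of which 18 and 22 passed 1.5-fold. Thus 44.1% were higher, against 60.1% of all symbol-bearing rows, and 58.8% passed the fold, against 47.0% of all symbol-bearing rows (30.8% higher and 16.3% lower). Among the higher ones, Gm684 (Colca2) had 2 rows at the same locus, at -2.91 and -0.74 and at 1.28 and 2.35. Gm5105 also had 2 rows at 1 locus, at 4.17 and 5.87 and at 3.55 and 4.97, and was the most strongly expressed locus to pass a 2-fold difference. In both cases the 2 rows had the same sign and overlapped, so they are not separate evidence, and 24.5% of the Gm5105 windows also occur in 1110002E22Rik. Gm5480 (Smim22), a small integral membrane protein, was at -0.99 and 0.52. 4933402D24Rik, Gm128 and Gm12185 stayed below 1 FPKM in both groups and were higher by 1.19, 1.04 and 1.02.

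Of the higher members with a current name, 4 are given here, chosen by their known roles and not as a group. C230081A13Rik (Peak1), a pseudokinase of the actin cytoskeleton, was at 2.82 and 3.62, and 4931406P16Rik (Garre1), a Rac effector, at 3.47 and 4.26. 9930013L23Rik (Cemip), which acts in hyaluronan breakdown, was at 3.39 and 3.95, and 1600029D21Rik (Plet1), a surface protein, at 1.54 and 2.26. Of these 4, Cemip did not pass 1.5-fold, and 40.1% of the Garre1 windows also occur in Gm12758. B230219D22Rik was at 4.43 and 5.17, and 3425401B19Rik at 0.10 and 0.97.

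Among the lower protein-coding members, 1700007K13Rik had the largest difference, at 0.35 in siCon and -1.85 in siH19. 4930451C15Rik (Lrrc74b) was at -0.93 and -2.99, 1700026L06Rik (Spaca9) at -0.20 and -2.02 and B230217C12Rik at -0.14 and -1.96. 4932418E24Rik (Ccdc187) and D430041D05Rik were lower by 1.45 and 1.44 and below 1 FPKM in both groups. These 6 were all weakly expressed. 1700003E16Rik was at 0.83 and -0.17.

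Lower members at clearer levels included 1810011O10Rik (Tcim), a small regulator of transcription, at 3.62 and 2.62, and 4632428N05Rik (Vsir), the immune checkpoint protein VISTA, at 3.10 and 2.34. 9030617O03Rik (Dglucy), a mitochondrial D-glutamate cyclase, was at 3.49 and 2.73, 4930455F23Rik (Ccdc181) at 4.29 and 3.57 and Gm5918 (Ccpg1os) at 3.16 and 2.34. All 5 passed 1.5-fold, but they are a selection. At a mean level from 2 to 4, where all 5 lie, 48.3% of RIKEN and Gm rows and 38.3% of the others passed in either direction. Gm3776, at 1.57 and 0.75, shares 76.0% of its windows with the glutathione transferase gene Gsta1, and its value is uncertain for that reason.

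Further members, chosen after their values were seen, encode mitochondrial proteins. 1810026J23Rik (Timm29), of the inner-membrane translocase, was higher at 3.43 and 4.10. 9430016H08Rik (Maip1), a partner of the inner-membrane AAA protease, was lower at 4.21 and 3.76, and 1810013D10Rik (Smim20), an assembly factor of cytochrome c oxidase, lower at 3.38 and 2.89. In trafficking and DNA repair, 9030624J02Rik (Vps35l), of the retriever complex, was at 4.99 and 4.54, and 2610002J02Rik (Faap20), of the Fanconi anaemia core complex, at 3.96 and 3.55. 2810474O19Rik (Resf1), which acts in the silencing of retroelements, was at 5.38 and 5.74. None of these last 3 passed 1.5-fold.

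The 2 pseudogenes were both higher, Gm1821 (Ubb-ps) at 3.87 and 4.35 and Gm9199 at 0.38 and 1.29, and the joined row Gm14306 and Gm14436 was at 2.79 and 3.40. Ubb, the ubiquitin gene from which Gm1821 derives, contains 78.5% of its windows, so the 2 cannot be told apart by many reads. Sharing was the exception. Of 88 member genes whose transcripts were compared with all others, 57 shared no window, 17 shared over 10% and 5 over 50%. The highest were Gm996 (Ajm1) with 92.1%, all with Gm26702, and Gm3776 with 89.0% in all, followed by Gm1821, Gm10220 and 1810009A15Rik. Other named members above 10% were 1110004E09Rik (Cfap298) with 32.9%, Vps35l with 18.4%, Tcim with 15.2%, Cerox1 with 14.7% and Gm128 with 13.4%.

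A listed neighbour within 5000 bp was found for 18 of the 95 rows (18.9%) and for 261 of the 2454 others (10.6%). The 18 include the 2 rows of Gm5105, whose listed neighbour is the other row of the same locus, and 16 rows had a neighbour with an ordinary name. Of 17 pairs with a neighbour that has an ordinary name, 9 had the same sign (52.9%), and of 134 pairs among the other rows 86 had (64.2%). The 17 count Gm684 and 4930451C15Rik in 2 pairs each. The same sign held for Gm684 and Pou2af1, which encodes a coactivator of B cells and was at -2.29 and 0.16. It also held for 4930451C15Rik with P2rx6 and Slc7a4, which are listed with the same locus and differed by -1.14 and -0.99. Opposite signs held for 1700026L06Rik and Ak8, an adenylate kinase gene at -0.32 and 0.94 whose row begins 509 bp away on the other strand. They also held for 1110051M20Rik, which differed by -0.35, and the joined row Arfgap2 and Pacsin3, which differed by 0.56, although 41.3% of the 1110051M20Rik windows also occur in Arfgap2.

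**Figure D5:**
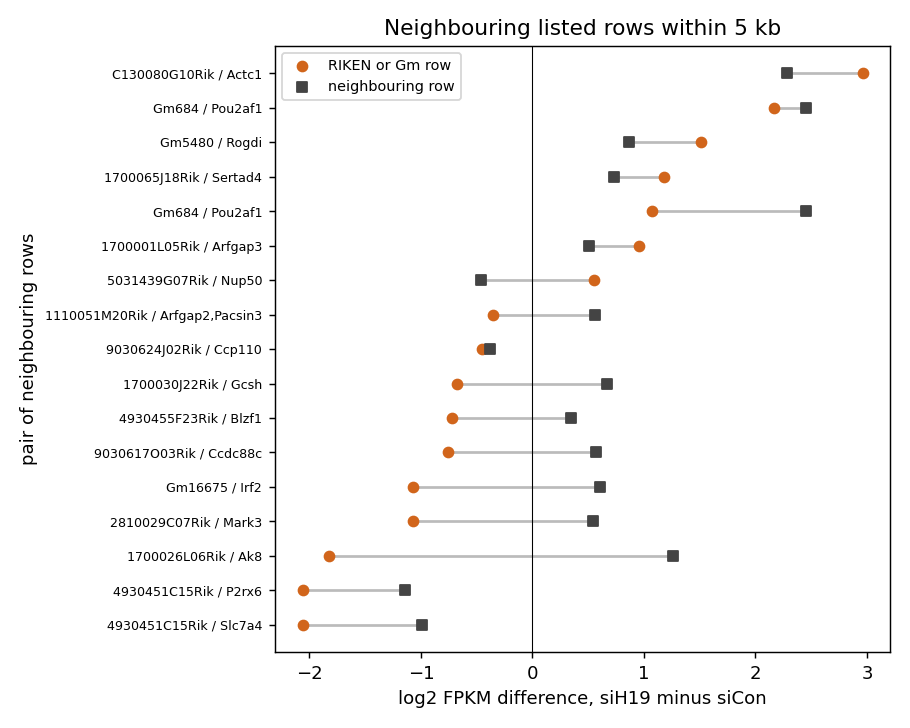
Log2 FPKM difference, siH19 minus siCon (horizontal), of each RIKEN or Gm row (circle) joined to that of its listed neighbour within 5000 bp (square), with 1 line for each of the 17 pairs. In 9 pairs both marks lie on the same side of 0, with C130080G10Rik at 2.96 and Actc1 at 2.28, and in 8 the line crosses 0.

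Of the 75 Rik rows, 34 were higher in siH19 and 41 lower (45.3% higher), and of the 20 Gm rows 14 were higher and 6 lower (70.0% higher), where 60.1% of all symbol-bearing rows were higher. The 14 include both rows of Gm684 and both of Gm5105, and the difference between the naming schemes was not tested. By the library codes of RIKEN names, 17 Rik members came from testis libraries, 7 higher and 10 lower, where 60.1% of all symbol-bearing rows were higher and 39.9% lower. Of these 17, 15 passed 1.5-fold (88.2%), against 47.0% of all symbol-bearing rows. Their median siCon level was 0.08, and among other rows with a mean level below 0 and from 0 to 2 the fold was passed by 94.1% and 64.4%. Of the 8 with code 1700, 2 were higher and 6 lower, all past the fold, and their median siCon level was 0.215. Of the 9 with the other testis codes, 5 were higher and 4 lower. On chromosome 2 there were 14 members (14.7%), against 7.70% of the other rows.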

How the data were processed

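RNA-seq was performed on 3 siCon and 3 siH19 libraries of C3H myotubes, read as pairs of 76 bases. Per the labels and the study's methods, the authors mapped reads to mm10 with TopHat (TopHat2 2.0.7 and TopHat 1.0.0 are named in the submitters' processing notes), and assembled and compared transcripts with Cufflinks and Cuffdiff 2.1.1. The authors deposited log2 values, 1 log2 FPKM per group pooled over 3 libraries and rounded to 2 decimals, only for features they called. Their columns of fold change and adjusted p were not used. Depth and replicate spread are unknown, so no test was run. Cuffdiff's normalization between groups is contained in the values.

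Differences between the group values were counted past 1.5-fold for the RIKEN and Gm rows and for the other symbol-bearing rows. The 11 rows that join such a symbol with another kind of symbol were counted among the other rows. Symbols were matched to GENCODE M21 and, through synonyms, to RefSeq. Locus starts were read as 0-based, since 484 of 2328 starts equalled the annotated start minus 1 and 65 equalled it. Shared sequence was counted as windows of 76 bases on the longest transcript, and promoters were RefSeq windows. Alternatives were other folds, a filter at a log2 FPKM of 0, other row choices, a shifted threshold and subtraction of the median difference.

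The named members were those with the 5 largest and 5 smallest differences among those reaching 1 FPKM in either group, the 5 with the highest mean level, those in 2 rows, joined or overlapping another row, the extremes of each annotated class, and a list of known proteins, with H19, calcium genes and cell type markers. Other members were named after their values were seen. The members and lists were chosen with earlier results of these data known. Python 3.11.15, numpy 2.4.6, pandas 2.3.3 and matplotlib 3.10.9 were used, and the computations were tested on simulated data.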

Additional observations from a re-analysis of the deposited data

How the results depend on the processing

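The group values carry no replicate error, so these limits concern the choice of threshold and members. Without a fold requirement all 95 members counted, with 48 higher and 47 lower, and 60.5% of the other symbol-bearing features were higher, while at the lowest fold tried the values were 95, 48, 47 and 60.6%. At 2-fold, 28 members counted, 15 higher and 13 lower, where 15.1% of all symbol-bearing features passed. Requiring 1 FPKM (log2 of 0) in whichever group was higher left out 25 of the 95 members (26.3%) and 5.99% of the others. Then 39 members passed 1.5-fold, 23 higher and 16 lower (59.0% higher), where 70.0% of the others past the fold were higher. The share of all symbol-bearing features that passed under this filter was not computed, so the 39 cannot be set beside it. The median siCon level of the remaining members was 3.0. Subtracting the median difference of 0.41 gave 15 higher and 47 lower, 24.2% higher among members and 19.4% among the others, and a median difference of -0.05. The median difference of the 95 members without this subtraction was 0.36. It lies at the edge of the empty gap around 0, and was -0.37 over members whose symbol occurs once. Leaving out members with over 10% of shared windows, an alternative chosen after seeing the data, gave 52 past the fold, 27 higher and 25 lower (51.9% higher). Of the others past the fold, 66.1% were higher, and 47.0% of all symbol-bearing features as listed passed. No paired analysis was possible because the table holds 1 pooled value per group, and for the same reason no library could be left out.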

Other observations

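Some members whose proteins serve cilia or flagella were lower in siH19. They were picked after their values were seen, are not a complete set, and were not tested. 9230110C19Rik (Cfap300) was at 1.15 in siCon and 0.22 in siH19, 1110004E09Rik (Cfap298) at 4.33 and 3.79, B230118H07Rik (Iftap) at 3.69 and 3.19, and D630037F22Rik (Tbc1d32) at 2.21 and 1.82. 1700026L06Rik (Spaca9), at -0.20 and -2.02, was given above. Of 20 other listed genes of this kind, picked by name after values were seen, 19 were lower and 1 was higher. Their median difference was -0.525. Over all symbol-bearing rows, 39.9% were lower. The intraflagellar transport genes Ift88 and Ift140 were at 3.0 and 2.44 and at 2.89 and 2.30, and the BBSome genes Bbs1, Bbs4 and Bbs5 differed by -0.47, -0.55 and -0.50. The 1 higher gene was Tekt5, which encodes a tektin of sperm flagella, at 3.01 and 3.56. Ak8, an adenylate kinase gene that is not among the 20, was at -0.32 and 0.94. Genes that were not called have no value here.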
